A study of Mus musculus with 52 samples.

Results

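The effect of the SOD1 G37R transgene on the ribosome-bound mRNA of spinal cord astrocytes was set against its effect on that of oligodendrocytes, both at disease onset. The comparison used 19 of the 52 libraries of the study: 4 Astro-G37R and 6 Astro-CTRL libraries, and 4 Oligo-G37R-8m and 5 Oligo-CTRL-8m libraries. G37R is a mutation of SOD1, the cytosolic superoxide dismutase, that causes an inherited form of amyotrophic lateral sclerosis, and the controls are labelled Non-Tg. All 19 libraries are labelled male and onset. The oligodendrocyte groups were 8 months old, and the labels give no age for the astrocyte groups. Controls and mutants alike were bacTRAP reporter mice, in which the ribosomal protein RPL10A carries EGFP in 1 cell type. Ribosomes were captured from spinal cord with antibodies to GFP, and poly(A) RNA was sequenced. The promoter that drives the tagged protein in each line is not given in the sources used here.

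Within each table of values, the G37R effect of a gene was the mean log2(value + 1) of the G37R libraries minus that of the control libraries. The difference is the astrocyte effect minus the oligodendrocyte effect, and the mean effect is the average of both. Genes entered with a mean level of at least 1 FPKM-equivalent in each table, which held for 11462 of 23697 genes. Zbtb8b lay just inside this minimum, with table means of 1.001 in astrocytes and 1.066 in oligodendrocytes, and Ccdc88c lay just outside it, at 1.735 and 0.9998. Each table mean ran over G37R and control libraries together, so a gene could enter through 1 group. Control oligodendrocytes averaged under 1 for Bcl3, Gchfr and Pla2g4e, which entered that table through their G37R libraries. A530058N18Rik averaged under 1 in G37R astrocytes and entered the astrocyte table through its controls. FPKM-equivalents are the deposited values divided by 1 common factor, so they are levels per transcript length whose absolute scale rests on that factor. Changes of low genes are understated on the log2(value + 1) scale. No label ties a library to its own animal, although the design speaks of biological replicates, and the p-values therefore measure the spread over libraries. A change in fewer cells and a change in RNA per cell cannot be told apart in these samples.

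Astrocytes clear transmitters and potassium, couple blood vessels to neurons and support myelin, and oligodendrocytes wrap axons in myelin and feed them. In injury and in amyotrophic lateral sclerosis, astrocytes take on a reactive state, with more of the intermediate filaments GFAP and vimentin and of acute-phase and complement proteins. Oligodendrocytes of diseased white matter are also known to make SERPINA3N, complement C4 and antigen presentation proteins. The cytokine factors STAT3 and NF-kB are known inducers of many of these genes.

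The purified libraries held the markers of their own cell type at higher levels than the libraries of the other type, and held markers of other cells too. In astrocyte libraries the sum of oligodendrocyte markers was above that of astrocyte markers. The summed level of 6 astrocyte markers was 966 to 1486 FPKM-equivalents in G37R astrocytes and 759.9 to 1515 in control astrocytes, against 42.1 to 57.4 in G37R and 33.1 to 116 in control oligodendrocytes. The sum of 6 oligodendrocyte markers was 5674 to 9528 and 5654 to 8055 in the same 2 astrocyte groups, and 24791 to 27266 and 24564 to 29574 in G37R and control oligodendrocytes. The sum of 6 microglial markers was 13.6 to 18.4 in G37R and 8.61 to 12.7 in control astrocytes, which did not overlap, and 9.27 to 12.2 and 6.81 to 16.2 in G37R and control oligodendrocytes. It was 81.3 to 97.9 in control spinal cord at 8 months. The sum of 5 neuronal markers was 1052 to 1463 in G37R and 883 to 1280 in control astrocytes. It was 2310 to 2670 in G37R and 1950 to 2525 in control oligodendrocytes, and 4027 to 4503 in control spinal cord. No defining marker was at 0 in all libraries of a group. Mouse Sod1 did not pass the threshold for the difference (0.15 (SE 0.15, adjusted p = 0.622)), and transcripts of the transgene are not listed apart from it. The correlation between 2 libraries of 1 group across genes was 0.968 to 0.985 in astrocytes and 0.962 to 0.986 in oligodendrocytes, and the deepest library was 1.32 and 1.30 times the shallowest, from the most frequent ratio of low values between libraries. Replicate 3 of the control oligodendrocytes stood apart in other cells' markers, with Aqp4 at 25.4 and Cx3cr1 at 5.96 FPKM-equivalents.

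A pattern of transcript length ran through both tables and in opposite directions. Over the 11358 genes with a known length (99.1% of those tested), the Spearman rho of length was -0.39 with the astrocyte effect, 0.32 with the oligodendrocyte effect and -0.49 with the difference. The G37R astrocyte libraries had values of -0.55, -0.18, -0.51 and 0.46, and the control astrocyte libraries of 0.12, 0.45, 0.36, 0.09, -0.37 and 0.30. Replicate 4 of the G37R astrocytes thus lay apart from the other 3. In G37R oligodendrocytes the values were 0.12, 0.11, 0.25 and 0.29, and in control oligodendrocytes -0.48, -0.28, 0.03, 0.06 and 0.32. The part of this length pattern in the results was not tested. Values centred within 20 bins of length, a choice made after the pattern was seen, stand beside some of the results they move. A result given without them may move too.

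**Figure D1:**
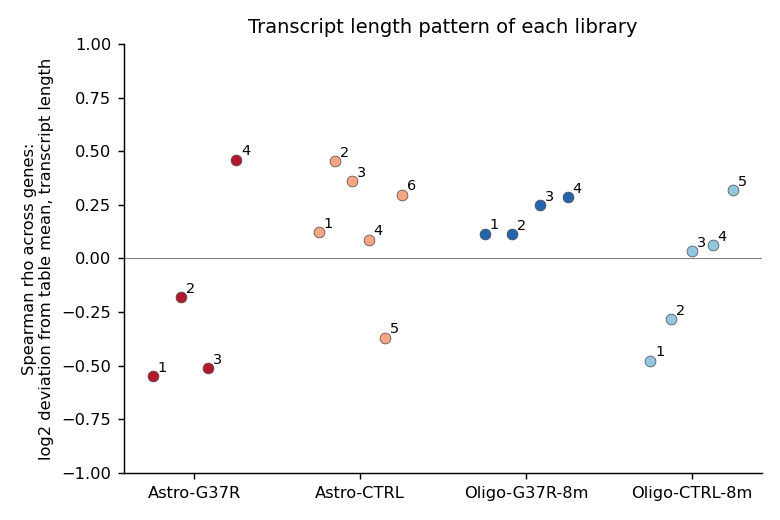
Spearman rho across genes between transcript length and a library's log2 deviation from the mean of its table, 1 point per library, in the 4 groups on the horizontal axis. Of the 4 G37R astrocyte libraries, 3 lie below 0, at -0.55, -0.51 and -0.18, and the fourth lies at 0.46, while the 4 G37R oligodendrocyte libraries lie between 0.11 and 0.29.

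Few G37R effects passed the threshold in both glial types at onset. The protease inhibitor Serpina3n, the filament gene Vim, the NF-kB cofactor Bcl3 and Gchfr rose in both, and Aven fell in both. In astrocytes 220 of the 11462 genes passed the threshold of adjusted p 0.05 (1.92%), 135 of them higher (1.18%) and 85 lower (0.742%) in G37R. In oligodendrocytes 11 passed (0.0960%), 10 higher (0.0872%) and 1 lower (0.00872%). The count of genes that pass in both cannot exceed these 11. A gene that did not pass in oligodendrocytes is not thereby shown to be unchanged there. In both tables and in the same direction, 5 genes passed (0.0436% of all), 4 of them higher and 1 lower. Over all 12467 genes of its own table the astrocyte effect passed for 292 (2.34%), 190 higher (1.52%) and 102 lower (0.818%), and for 138, 156 and 186 without replicates 1, 2 and 4 of the controls and 193 and 143 without replicates 2 and 3 of the G37R libraries. The median SE of an effect was 0.10 in astrocytes and 0.09 in oligodendrocytes. For the whole transcriptome the effects did not run together: across the 11462 genes, which are not independent replicates, Pearson's r was -0.07 and Spearman's rho -0.08. Pearson's r was -0.16 without replicate 4 of the G37R astrocytes and 0.06 without their replicates 1 and 3. It was -0.0037 without replicate 3 of the control oligodendrocytes and -0.0028 with length-centred values. Genes higher in G37R astrocytes leaned the same way in oligodendrocytes, where 95 of 135 had a positive effect (70.4%, against 54.2% of all genes), with a median of 0.11 against 0.01. For genes lower in G37R astrocytes there was no such lean, with 39 of 85 negative in oligodendrocytes (45.9%, against 45.8% of all).

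**Figure D2:**
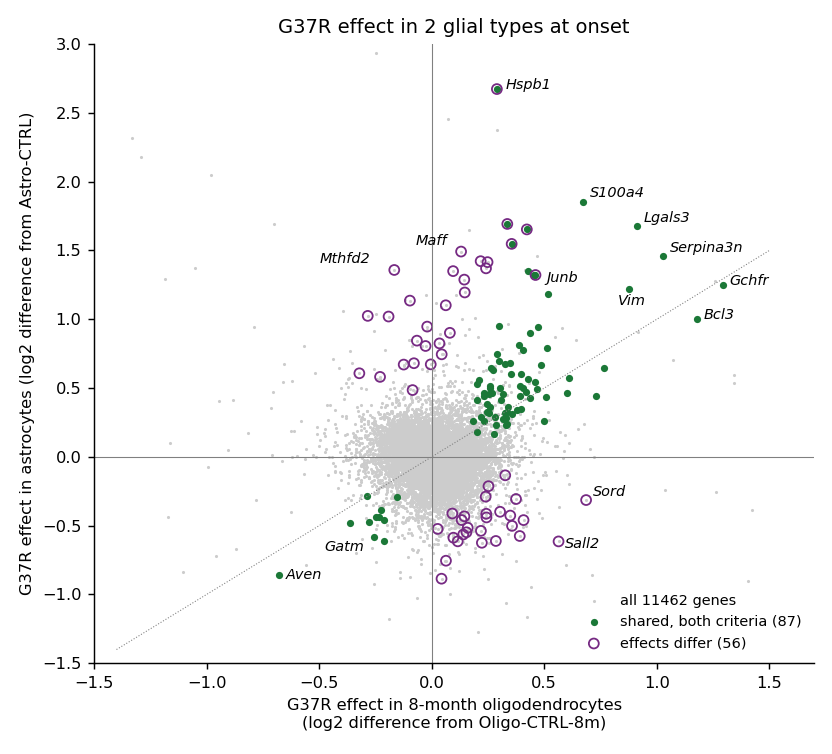
G37R effect of each gene in 8-month oligodendrocytes (horizontal) and astrocytes (vertical), as log2 differences from the controls of the same table. Green points are the 87 genes shared by the criteria given in the text, purple rings the 56 genes whose effects differ, and grey points the others, with 31 of 11462 genes outside the plotted range and a dotted line where both effects are equal. The 76 shared higher genes lie right of and above 0, the 11 shared lower genes left of and below it.

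Serpina3n encodes an extracellular serine protease inhibitor of the acute phase and is a marker of reactive astrocytes (chromosome 12, 105644917 to 105652539, mm9). Its level was 79.8, 82.3, 53.5 and 129 FPKM-equivalents in the G37R astrocyte libraries, against a lowest, median and highest of 20.9, 29.7 and 38.7 in the 6 controls. G37R oligodendrocytes held 112, 94.2, 100.2 and 82.3, against 44.0, 52.4, 44.5, 37.8 and 58.6 in control oligodendrocytes. Neither pair of groups overlapped, and the level in oligodendrocytes was of the same order as in astrocytes, across tables that were normalized separately. The effect was 1.46 (SE 0.21, adjusted p = 0.00403) in astrocytes and 1.03 (SE 0.12, adjusted p = 0.00688) in oligodendrocytes by limma. The difference of 0.43 had an SE of 0.27 and did not pass (adjusted p = 0.446), which does not show that the effects are alike.

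Vim, the intermediate filament vimentin (chromosome 2, 13495937 to 13504453), was at 429.8, 321, 252 and 520.1 FPKM-equivalents in G37R astrocytes, against 141, 150.0 and 202 (lowest, median, highest) in controls. In oligodendrocytes it was at 21.6, 23.1, 19.96 and 17.9 in G37R libraries and 11.2, 10.8, 8.60, 12.2 and 11.1 in controls. The groups were separate in both tables, although the level in oligodendrocytes was far below that in astrocytes. Its effects were 1.22 (SE 0.18, adjusted p = 0.00473) and 0.88 (SE 0.10, adjusted p = 0.0048) in astrocytes and oligodendrocytes. Bcl3, an atypical inhibitor of NF-kB that acts with it in the nucleus (chromosome 7, 20393810 to 20408104), was at 5.65, 3.50, 2.80 and 8.37 in G37R and 1.22, 1.997 and 2.42 (lowest, median, highest) in control astrocytes. G37R oligodendrocytes had 4.78, 3.71, 2.70 and 2.75, and the controls 1.01, 1.28, 1.02, 0.697 and 0.796. No G37R library of either cell type reached down to its controls, and the effect was 0.998 (SE 0.22, adjusted p = 0.0358) in astrocytes and 1.18 (SE 0.14, adjusted p = 0.0048) in oligodendrocytes. The astrocyte call of Bcl3 was lost under 11 of 20 alternatives, among them the omission of any 1 control astrocyte library and length-centred values, with adjusted p from 0.00582 to 0.202.

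Gchfr encodes the feedback regulator of GTP cyclohydrolase, the first enzyme of tetrahydrobiopterin synthesis (chromosome 2, 118993523 to 118998125). G37R astrocytes had 11.3, 6.67, 9.63 and 3.28 FPKM-equivalents of it, against 1.92, 2.32 and 3.10 (lowest, median, highest) in controls. In G37R oligodendrocytes it was at 3.65, 3.89, 2.23 and 3.44, against 1.08, 0.821, 0.876, 0.585 and 0.392 in controls. It was thus higher in every G37R library of both tables, by 1.25 (SE 0.24, adjusted p = 0.0201) in astrocytes and 1.29 (SE 0.14, adjusted p = 0.0048) in oligodendrocytes. Aven, an inhibitor of caspase activation (chromosome 2, 112333120 to 112471410), was the gene that fell in both. Its levels were 50.0, 53.2, 39.1 and 49.4 in G37R and 74.1, 87.1 and 101 (lowest, median, highest) in control astrocytes. In oligodendrocytes they were 57.9, 47.7, 54.2 and 51.1 in G37R and 88.9, 90.6, 70.4, 85.3 and 90.1 in control libraries. The groups were separate in both tables, at similar levels in both cell types, and the effects were -0.86 (SE 0.11, adjusted p = 0.00157) and -0.68 (SE 0.09, adjusted p = 0.00976). In whole spinal cord at 8 months Aven did not pass (log2 difference -0.14, adjusted p = 0.751). Its oligodendrocyte call was lost without replicate 2 or replicate 4 of the G37R oligodendrocytes. The 5 shared calls became 3 (Aven, Serpina3n and Vim) without replicate 1 of the control astrocytes.

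**Figure D3:**
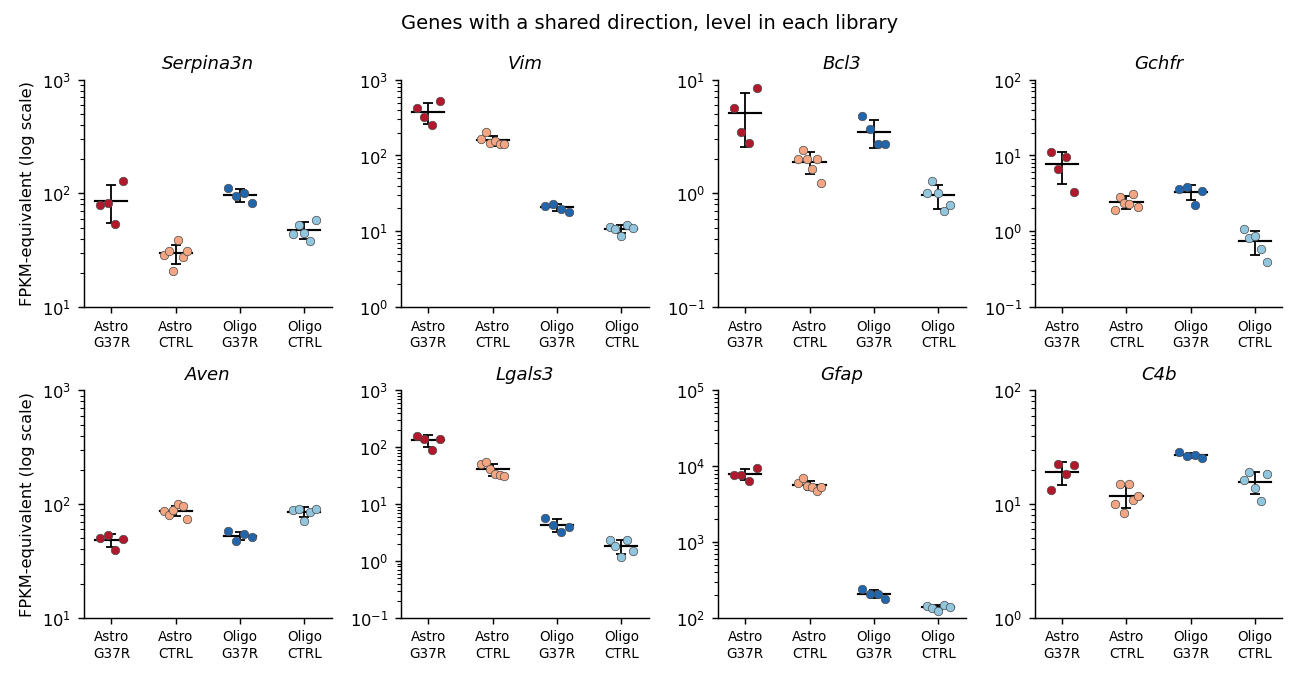
Level of 8 genes in FPKM-equivalents on a log axis, 1 point per library, with bars for the mean and SD, in Astro-G37R, Astro-CTRL, Oligo-G37R-8m and Oligo-CTRL-8m libraries. For Serpina3n, Vim, Bcl3, Gchfr and Lgals3 every G37R library lies above its controls in both cell types, and for Aven every one lies below them.

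The sequences before the start sites of the 3 shared genes that rose and are known in glial reactivity, and of Hspb1, the gene with the largest difference among the 56 that passed, show what short factor motifs stand there. They are the 250 bases before the RefSeq start on GRCm38.p6, 5′ to 3′ on the gene's strand, with motif matches in capitals. Both strands were searched for the letters TTCNNNGAA (the STAT palindrome, in 7.02% of 32851 such windows), TGANTCA (AP-1, 6.75%), GAANNTTC (the heat shock element core, 6.69%), TTGCNNAA (C/EBP, 9.56%) and GGGA and CC with 4 bases of any kind between them (an NF-kB motif, 17.6%).
Serpina3n, chr12:104406458-104406707, forward strand: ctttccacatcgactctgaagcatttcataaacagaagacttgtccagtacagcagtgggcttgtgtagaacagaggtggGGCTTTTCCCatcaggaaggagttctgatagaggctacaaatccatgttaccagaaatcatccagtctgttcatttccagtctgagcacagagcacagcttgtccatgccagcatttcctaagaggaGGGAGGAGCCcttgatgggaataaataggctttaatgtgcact
Vim, chr2:13574061-13574310, forward strand: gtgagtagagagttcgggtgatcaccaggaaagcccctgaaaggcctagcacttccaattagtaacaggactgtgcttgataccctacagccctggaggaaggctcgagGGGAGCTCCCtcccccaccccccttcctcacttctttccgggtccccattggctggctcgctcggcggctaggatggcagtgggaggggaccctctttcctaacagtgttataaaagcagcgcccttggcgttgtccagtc
Bcl3, chr7:19822756-19823005, reverse strand: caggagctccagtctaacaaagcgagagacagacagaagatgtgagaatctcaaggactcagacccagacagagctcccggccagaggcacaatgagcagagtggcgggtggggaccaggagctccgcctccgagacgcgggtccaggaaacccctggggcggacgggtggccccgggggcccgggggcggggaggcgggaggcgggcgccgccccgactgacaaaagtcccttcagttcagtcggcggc
Hspb1, chr5:135887669-135887918, forward strand: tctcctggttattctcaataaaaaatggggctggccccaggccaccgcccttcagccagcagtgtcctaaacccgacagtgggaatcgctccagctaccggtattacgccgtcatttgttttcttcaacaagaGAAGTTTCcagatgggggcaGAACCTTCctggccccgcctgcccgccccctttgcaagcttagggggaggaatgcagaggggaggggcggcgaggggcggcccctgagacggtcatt

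In these windows, Serpina3n held 2 matches to the NF-kB letters, 170 to 161 and 43 to 34 bases before the start, and Vim held 1, 141 to 132 bases before it. Hspb1 held 2 heat shock cores, 117 to 110 and 97 to 90 bases before the start. The window of Bcl3 held none of the 5 sets of letters. These matches describe the sequence and are not evidence that a factor binds there.

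A wider view of what is shared came from the mean of the effects, which 163 genes passed (1.42% of 11462), 128 higher (1.12%) and 35 lower (0.305%). A large effect in 1 cell type can carry this mean: 134 of the 163 had the larger effect in astrocytes, and 25 also passed for the difference. The count was 105 and 103 without replicates 1 and 2 of the G37R oligodendrocytes and 256 with length-centred values. Genes were therefore called shared where they passed for the mean, had the same sign in both tables and had an unadjusted p under 0.05 in each. This held for 87 genes (0.759% of those tested), 76 higher (0.663%) and 11 lower (0.0960%). The condition on the unadjusted p is a weak one, as 10.6% of all genes tested met it in oligodendrocytes by limma. Hspb1, Cebpd, Lyz2, Tyrobp and Junb met the criteria and also passed for the difference. The G37R and control groups did not overlap for 557 genes in astrocytes (4.86%) and 503 in oligodendrocytes (4.39%), and in both tables and the same direction for 35 genes (0.305%), 32 higher (0.279%) and 3 lower (0.0262%). Of the 87 genes, 68 met the criteria again without replicate 4 of the G37R astrocytes, 84 without replicate 3 of the control oligodendrocytes and 72 with length-centred values. The criteria gave 66 higher and 5 lower genes without the first of these libraries, and 99 and 23 without the second.

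The shared set held cytoskeletal genes and genes of calcium- and sugar-binding proteins. Lgals3, the lectin galectin-3, was at 161, 141, 90.0 and 139.8 FPKM-equivalents in G37R astrocytes, against 30.6, 38.1 and 55.5 (lowest, median, highest) in controls. G37R oligodendrocytes had 5.81, 4.33, 3.23 and 3.99, against 2.35, 1.82, 1.17, 2.37 and 1.48 in controls. Both pairs of groups were separate, and Lgals3 passed in astrocytes (1.68 (SE 0.19, adjusted p = 0.00109)) and for the mean (1.29 (SE 0.13, adjusted p = 1.42e-05)), but not in oligodendrocytes alone (0.91 (SE 0.16, adjusted p = 0.0835)). S100a4, a calcium-binding protein, averaged 160.0 ± 48.0 in G37R and 42.3 ± 6.26 in control astrocytes (SD, n = 4 and 6). It was at 5.04, 2.52, 3.63 and 3.88 in G37R and 2.59, 2.89, 1.72, 1.57 and 1.24 in control oligodendrocytes. Its mean effect was 1.26 (SE 0.14, adjusted p = 2.42e-05). Lgals3 and S100a4 stood far lower in oligodendrocyte than in astrocyte libraries. So did the summed astrocyte markers, with medians of 46.3 in control oligodendrocytes and 1142 in control astrocytes. The part of astrocyte RNA in the oligodendrocyte results of these genes was not tested. Anxa3, an annexin that binds membranes in the presence of calcium, passed for the mean at 0.89 (SE 0.15, adjusted p = 0.00233), with groups apart in both tables. The actin regulators Capg and Coro1a, the tubulin Tubb6 and the ion channel protein Clic1 were also shared, with mean effects of 0.71, 0.52, 0.60 and 0.50.

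Gfap, the filament by which reactive astrocytes are known, passed in oligodendrocyte libraries and not in astrocyte libraries. It was at 7538, 7729, 6362 and 9473 FPKM-equivalents in G37R astrocytes, against 4682, 5397 and 7026 (lowest, median, highest) in controls, and 1 G37R library lay within the control range. In the oligodendrocyte tables it was at 240.3, 208, 207 and 178 in G37R and 143, 133, 122, 146 and 139.6 in controls, which did not overlap. The effects were 0.46 (SE 0.15, adjusted p = 0.137) in astrocytes and 0.60 (SE 0.09, adjusted p = 0.0244) in oligodendrocytes, with a mean of 0.53 (SE 0.08, adjusted p = 0.00131). The difference of -0.14 did not pass (adjusted p = 0.705). The summed astrocyte markers in oligodendrocyte libraries overlapped between genotypes, at 42.1 to 57.4 in G37R and 33.1 to 116 in controls, and the part of astrocyte RNA in the Gfap, Vim and Serpina3n results of oligodendrocytes was not tested. The oligodendrocyte call of Gfap was lost under 7 of 19 alternatives, with adjusted p from 0.0135 to 0.157.

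Complement C4b, a component of the classical pathway, passed in neither table alone but passed for the mean. It was at 13.2, 22.6, 18.4 and 22.2 in G37R and 8.36, 11.4 and 15.004 (lowest, median, highest) in control astrocytes, which overlapped. It was at 28.9, 26.2, 26.8 and 25.4 in G37R and 16.4, 19.0, 14.0, 10.7 and 18.4 in control oligodendrocytes, which did not. The mean effect was 0.70 (SE 0.12, adjusted p = 0.00305), from 0.64 in astrocytes and 0.76 in oligodendrocytes. C4a, its near-identical neighbour with which it can share reads, had a mean effect of 0.47 (adjusted p = 0.00333).

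Transcription and signalling genes of the acute phase and interferon responses were also shared. Junb, a subunit of AP-1, was at 12.5, 11.9, 10.7 and 17.5 in G37R and 4.15, 4.38 and 5.24 (lowest, median, highest) in control astrocytes, and at 5.73, 5.53, 5.34 and 4.70 in G37R and 3.64, 3.62, 3.21, 3.43 and 4.07 in control oligodendrocytes. Both pairs were separate, with effects of 1.32 (SE 0.12, adjusted p = 0.000258) and 0.46 (SE 0.08, adjusted p = 0.0754), and the astrocyte effect was the larger (0.86 (SE 0.15, adjusted p = 0.00839) for the difference). Cebpd, a factor of the acute phase, had a mean effect of 1.04 (SE 0.12, adjusted p = 4.52e-05), again with the larger part in astrocytes (1.23 (SE 0.24, adjusted p = 0.0234)). Trib1, a pseudokinase that marks C/EBP factors for degradation, rose in oligodendrocytes to 2.59 ± 0.327 in G37R, against 1.16 ± 0.118 in controls (0.73 (SE 0.08, adjusted p = 0.0048)). In astrocytes it stood at 15.8 ± 2.72 in G37R and 11.3 ± 2.10 in controls and did not pass (0.44 (SE 0.14, adjusted p = 0.125)). The interferon regulators Irf7 and Irf8 had mean effects of 0.50 and 0.45, and the interferon-induced genes Oasl2 and Irgm1 of 0.46 and 0.31. The mean call of Oasl2 ended in 10 of 19 omissions of 1 library, and Irgm1 passed narrowly by limma (adjusted p = 0.0481). Psmb8, a subunit of the immunoproteasome, averaged 33.1 ± 5.76 in G37R and 23.1 ± 2.08 in control astrocytes, and 2.95 ± 0.737 in G37R and 1.83 ± 0.315 in control oligodendrocytes. Its effects were 0.49 and 0.47, with a mean of 0.48 (SE 0.09, adjusted p = 0.00488). Chac1, a glutathione-degrading enzyme of the ATF4 stress response, had effects of 0.60 and 0.40 and a mean of 0.50 (SE 0.07, adjusted p = 0.000174), with both pairs of groups separate.

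Genes that are known from microglia and macrophages were also among the 87. Lyz2, the lysozyme of myeloid cells, which has a near-identical neighbour in Lyz1, was at 8.34, 10.5, 6.98 and 10.4 in G37R and 1.29, 2.16 and 2.65 (lowest, median, highest) in control astrocytes. In oligodendrocytes it was at 3.30, 3.01, 3.04 and 2.09 in G37R and 2.19, 1.95, 2.74, 1.37 and 2.07 in controls. The groups were separate in astrocytes and overlapped in oligodendrocytes, and the mean effect was 1.01 (SE 0.10, adjusted p = 1.36e-05). Tyrobp, the adapter of TREM2 and other myeloid receptors, had effects of 1.55 in astrocytes and 0.36 in oligodendrocytes and a mean of 0.95 (SE 0.10, adjusted p = 1.42e-05). Aif1, Sfpi1, Ly86, Ncf1 and Cyth4 were shared too, with mean effects of 0.59, 0.49, 0.62, 0.52 and 0.40. Some microglial markers went the other way in oligodendrocytes. Cx3cr1 averaged 1.72 in G37R and 2.17 in controls there, P2ry12 3.23 and 3.68, and Tmem119 0.808 and 0.895. Csf1r (2.80 and 2.33), Itgam (0.379 and 0.316) and Aif1 (2.05 and 1.29) were higher in G37R. In astrocytes P2ry12 averaged 3.47 in G37R and 3.40 in controls. The microglial marker sums given above were higher in every G37R astrocyte library than in the controls and overlapped in oligodendrocytes, and their part in these results was not tested.

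The 11 genes that were lower in both were led by Aven. Gatm, the first enzyme of creatine synthesis (chromosome 2, 122420208 to 122437013), averaged 209.7 ± 12.7 in G37R and 316 ± 30.7 in control astrocytes, and 968 ± 40.8 in G37R and 1158 ± 103 in control oligodendrocytes. The groups were apart in both tables, and the mean effect was -0.42 (SE 0.06, adjusted p = 0.000347), with -0.26 (SE 0.08, adjusted p = 0.335) in oligodendrocytes alone. A530058N18Rik was also apart in both (mean effect -0.42 (SE 0.07, adjusted p = 0.00182)) at levels of 0.784 ± 0.159 in G37R and 1.501 ± 0.304 in control astrocytes. Smaller falls of the mean were those of Nipal4, Bfsp2, Thrsp (a gene of lipid synthesis), Pigf (a gene of glycolipid anchor synthesis) and Trim13 (a ubiquitin ligase), from -0.41 to -0.33. The omission of 1 library ended the mean call of Bfsp2 in 14 of 19 omissions, of Trim13 in 12, of Dnajc17 in 6 and of Nipal4 in 4. The other 3 were Dnajc17, Efnb3, a ligand of Eph receptors, and 2810002D19Rik.

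The oligodendrocyte effect had 13 calls among the 11936 genes of its table (0.109%), 12 higher (0.101%) and 1 lower (0.00838%). Besides the 5 shared calls, Gfap and Trib1, they were Pla2g4e, Fmn1, Aldh1l2, Ganc, Sord and Uhrf1bp1l. Pla2g4e, a cytosolic phospholipase (chromosome 2, 119992147 to 120071071), was below the minimum level in astrocytes. It was at 1.02, 0.843, 0.709 and 1.42 in G37R and 0.153, 0.225 and 0.334 (lowest, median, highest) in control astrocytes, and at 2.91, 3.35, 2.43 and 2.55 in G37R and 0.411, 0.336, 0.547, 0.574 and 0.561 in control oligodendrocytes. The groups were apart in both tables, and the oligodendrocyte effect was 1.36 (SE 0.09, adjusted p = 5.88e-05). Aldh1l2, a mitochondrial enzyme of folate metabolism, rose to 9.04 ± 0.305 in G37R oligodendrocytes, against 5.69 ± 0.654 in controls (0.59 (SE 0.08, adjusted p = 0.0121)). In astrocytes it was at 3.31 ± 1.25 in G37R and 2.77 ± 0.510 in controls (0.16 (SE 0.17, adjusted p = 0.652)), and the difference of -0.43 did not pass (adjusted p = 0.337). Ganc, a neutral glucosidase, rose by 0.57 (SE 0.08, adjusted p = 0.00976) in oligodendrocytes and had an astrocyte effect of 0.18 (SE 0.13, adjusted p = 0.504). The omission of any 1 of the 4 G37R oligodendrocyte libraries ended the oligodendrocyte call of Aldh1l2, with adjusted p up to 0.2235 over its 19 alternatives. That of Uhrf1bp1l ended in 8 of 9 omissions, that of Ganc in 2 of 9 and that of Fmn1 in 2 of 7. The oligodendrocyte count was 7 without replicate 2 and 8 without replicate 3 of the G37R oligodendrocytes.

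The effects of G37R on the 2 cell types differed for 56 genes by limma (0.489% of 11462), 29 with the higher effect in astrocytes (0.253%) and 27 with the lower (0.236%). With median-ratio scaling the split was 37 higher and 20 lower, with array weights 76 higher and 191 lower, and without replicate 4 of the G37R astrocytes 168 higher and 458 lower. The unadjusted p was under 0.05 for 1637 genes. All 29 genes of the higher kind rose in astrocytes, and 13 of them had a negative effect in oligodendrocytes. All 27 of the lower kind had a negative effect in astrocytes, 17 of them past the threshold, and a positive one in oligodendrocytes, where Sord alone passed. Their median transcript length was 1809 bases for the higher and 4198 for the lower kind, against 3336 for all genes. With length-centred values 33 genes differed, 17 higher and 16 lower, 30 of them among the 56. The count lay between 21 without replicate 4 of the G37R oligodendrocytes and 626 without replicate 4 of the G37R astrocytes, which kept all 56. It was 34 without replicate 1 or 2 of the control astrocytes, 92 without their replicate 5, 37 without replicate 3 of the G37R astrocytes, 34 without replicate 1 of the control oligodendrocytes, and 27 and 22 without replicates 1 and 2 of the G37R oligodendrocytes.

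Hspb1, Mthfd2 and Maff had the 3 largest differences among the 56 genes. Hspb1, a small heat shock protein that chaperones filaments and unfolded proteins (chromosome 5, 136363788 to 136365433), was at 280.2, 194, 166 and 343 FPKM-equivalents in G37R astrocytes, against 30.2, 34.6 and 48.2 (lowest, median, highest) in controls. In oligodendrocytes it was at 9.43, 7.68, 8.84 and 7.18 in G37R and 6.83, 6.65, 7.22, 5.39 and 6.86 in controls. The astrocyte groups were far apart and the oligodendrocyte groups overlapped. The effects were 2.67 (SE 0.19, adjusted p = 9.91e-05) and 0.29 (SE 0.10, adjusted p = 0.366), and the difference was 2.38 (SE 0.23, adjusted p = 2.42e-05). Mthfd2, a mitochondrial enzyme of folate metabolism under ATF4, was at 70.2, 99.6, 129.8 and 114 in G37R and 29.7, 38.9 and 54.1 (lowest, median, highest) in control astrocytes. In oligodendrocytes it was at 44.6, 42.1, 46.2 and 40.4 in G37R and 53.1, 47.5, 45.1, 47.1 and 51.1 in controls. It rose in astrocytes (1.36 (SE 0.19, adjusted p = 0.00383)), had an effect of -0.17 (SE 0.07, adjusted p = 0.446) in oligodendrocytes, where the groups overlapped, and differed by 1.52 (SE 0.22, adjusted p = 0.00238).

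Maff, a small MAF factor of stress responses, had 7.15, 7.27, 8.47 and 10.2 FPKM-equivalents in G37R and 1.84, 2.29 and 2.86 (lowest, median, highest) in control astrocytes. G37R oligodendrocytes had 1.09, 1.04, 2.01 and 0.896, and the controls 1.27, 0.680, 1.57, 0.757 and 1.001. The groups were separate in astrocytes and overlapped in oligodendrocytes, and the difference was 1.36 (SE 0.20, adjusted p = 0.00238). Mt1, a metal-binding metallothionein, averaged 32757 ± 5764 in G37R and 16090.0 ± 2690.2 in control astrocytes, and 675 ± 151 in G37R and 823 ± 189 in control oligodendrocytes. It differed by 1.31 (SE 0.25, adjusted p = 0.0184), and that call was lost without replicate 2 or 4 of the G37R oligodendrocytes and without replicates 1 and 3 of the G37R astrocytes. S100a6, a calcium-binding protein, differed by 1.21 (SE 0.25, adjusted p = 0.0291), with means of 857 ± 215 in G37R and 417 ± 67.2 in control astrocytes and 95.9 ± 8.08 in G37R and 112 ± 27.9 in control oligodendrocytes. Nupr1, a stress-induced chromatin protein, differed by 1.14 (SE 0.22, adjusted p = 0.0234), and Herpud1, a component of ER-associated degradation, by 0.81 (SE 0.17, adjusted p = 0.0382). The omission of 1 library ended the difference call of Herpud1 in 12 of 19 omissions, of S100a6 in 6 and of Nupr1 and Cebpd in 4 each. The differences of Hspb1, Mthfd2 and Maff passed under every alternative tried.

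Genes known from microglia and from complement were also among the 29 of the higher kind. The 3 chains of C1q, which starts the classical complement pathway, all differed. C1qb was at 17.99, 26.4, 24.3 and 21.4 in G37R and 6.30, 7.38 and 10.1 (lowest, median, highest) in control astrocytes, and at 6.37, 5.71, 6.92 and 4.52 in G37R and 4.45, 4.34, 6.05, 4.60 and 5.05 in control oligodendrocytes. The astrocyte groups were separate and the oligodendrocyte groups overlapped, with a difference of 1.204 (SE 0.19, adjusted p = 0.00576). For C1qa the difference was 1.17 (SE 0.25, adjusted p = 0.0384) and for C1qc 1.13 (SE 0.19, adjusted p = 0.00576). None of the 3 passed with length-centred values, where the adjusted p was 0.214 for C1qa, 0.0735 for C1qb and 0.116 for C1qc. The Fc receptor genes Fcgr3 and Fcer1g differed by 1.23 (SE 0.16, adjusted p = 0.00104) and 1.25 (SE 0.27, adjusted p = 0.0384). The omission of 1 library ended the difference call of C1qa in 12 of 19 omissions and that of Fcer1g in 11. Trem2, a lipid receptor of microglia, differed by 1.05 (SE 0.18, adjusted p = 0.00839), Olfml3 by 1.04 (SE 0.14, adjusted p = 0.00104), Tyrobp by 1.19 (SE 0.20, adjusted p = 0.00576) and Lyz2 by 1.36 (SE 0.21, adjusted p = 0.00312). The protease gene Ctsh, of the lysosome, differed by 0.91 (SE 0.15, adjusted p = 0.00576). With length-centred values Lyz2 (adjusted p = 0.0601), Tyrobp (0.0569), Fcer1g (0.162), S100a6 (0.0691) and Junb (0.0611) did not pass either. The microglial marker sums moved with genotype in astrocyte libraries, at 13.6 to 18.4 in G37R and 8.61 to 12.7 in controls, and their part in these differences was not tested.

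Sall2, Sox2, Sox9 and Msi1, regulators known from neural progenitors or astrocytes, were among the 27 genes of the lower kind. Sall2, a zinc finger factor (chromosome 14, 52930851 to 52948345), was at 46.3, 37.6, 31.4 and 37.7 FPKM-equivalents in G37R astrocytes, against 49.9, 59.0 and 67.2 (lowest, median, highest) in controls. In oligodendrocytes it was at 11.1, 11.6, 16.3 and 10.6 in G37R and 7.76, 7.44, 7.96, 8.12 and 8.55 in controls. The groups were separate in both tables in opposite directions, as for 7 genes in all (0.0611% of those tested). The effects were -0.61 (SE 0.11, adjusted p = 0.0127) and 0.56 (SE 0.11, adjusted p = 0.115), and the difference -1.18 (SE 0.16, adjusted p = 0.00104) passed under every alternative tried. Sox2, a factor of neural stem cells and astrocytes, was at 157, 120.0, 95.6 and 103 in G37R and 154, 170.1 and 197 (lowest, median, highest) in control astrocytes, and at 8.98, 9.94, 6.46 and 10.6 in G37R and 6.02, 8.14, 5.86, 6.12 and 6.64 in control oligodendrocytes. Both pairs of groups overlapped, and the difference was -0.97 (SE 0.19, adjusted p = 0.0261). Sox9, a factor of astrocyte identity, differed by -0.78 (SE 0.17, adjusted p = 0.042), with means of 36.4 ± 4.17 in G37R and 49.6 ± 8.29 in control astrocytes and 1.56 ± 0.322 in G37R and 1.01 ± 0.187 in control oligodendrocytes. With length-centred values its adjusted p was 0.0634, and its call ended in 12 of 19 omissions of 1 library, as that of Sox2 did in 6. Msi1, an RNA-binding protein of neural progenitors, differed by -0.85 (SE 0.18, adjusted p = 0.0384), and lost that call under 15 of 28 alternatives.

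Sord, the sorbitol dehydrogenase of the polyol pathway (chromosome 2, 122060574 to 122091073), passed in oligodendrocytes and for the difference. It was at 12.9, 10.7, 12.6 and 12.1 in G37R and 11.7, 16.1 and 17.6 (lowest, median, highest) in control astrocytes. In oligodendrocytes it was at 17.5, 15.6, 15.4 and 14.9 in G37R and 11.4, 9.24, 8.70, 9.39 and 8.78 in controls. The oligodendrocyte groups were separate and the astrocyte groups overlapped. Its effects were -0.31 (SE 0.11, adjusted p = 0.176) and 0.69 (SE 0.09, adjusted p = 0.00688), and the difference was -0.9997 (SE 0.15, adjusted p = 0.00238). Plekho2 fell in astrocytes, to 56.3 ± 12.4 in G37R, against 103 ± 8.70 in controls (-0.89 (SE 0.12, adjusted p = 0.00355)), and stood at 12.2 ± 1.15 in G37R and 11.9 ± 1.37 in control oligodendrocytes. Rnd3, an atypical small GTPase, differed by -0.90 (SE 0.18, adjusted p = 0.0287), Bcar3, an adapter of integrin signalling, by -0.86 (SE 0.15, adjusted p = 0.0129), and Snrk, a kinase related to AMPK, by -0.87 (SE 0.19, adjusted p = 0.0453). Snrk lost its call under 19 of 29 alternatives, Rnd3 under 9 of 28, and Sord, Plekho2 and Bcar3 kept theirs under all that could be run. Axin2, an inhibitor and target of WNT signalling, the pseudokinase gene Trib2 and Ppargc1a, a coactivator of mitochondrial biogenesis, differed by -0.70, -0.82 and -0.68. With length-centred values they did not pass by limma, at adjusted p of 0.0569, 0.0626 and 0.0643. Ppargc1a did not pass with median-ratio scaling either (0.0603). Without replicates 1 and 3 of the G37R astrocytes Axin2 (0.0994) and Ppargc1a (0.219) did not pass, while Trib2 did (0.00425).

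**Figure D4:**
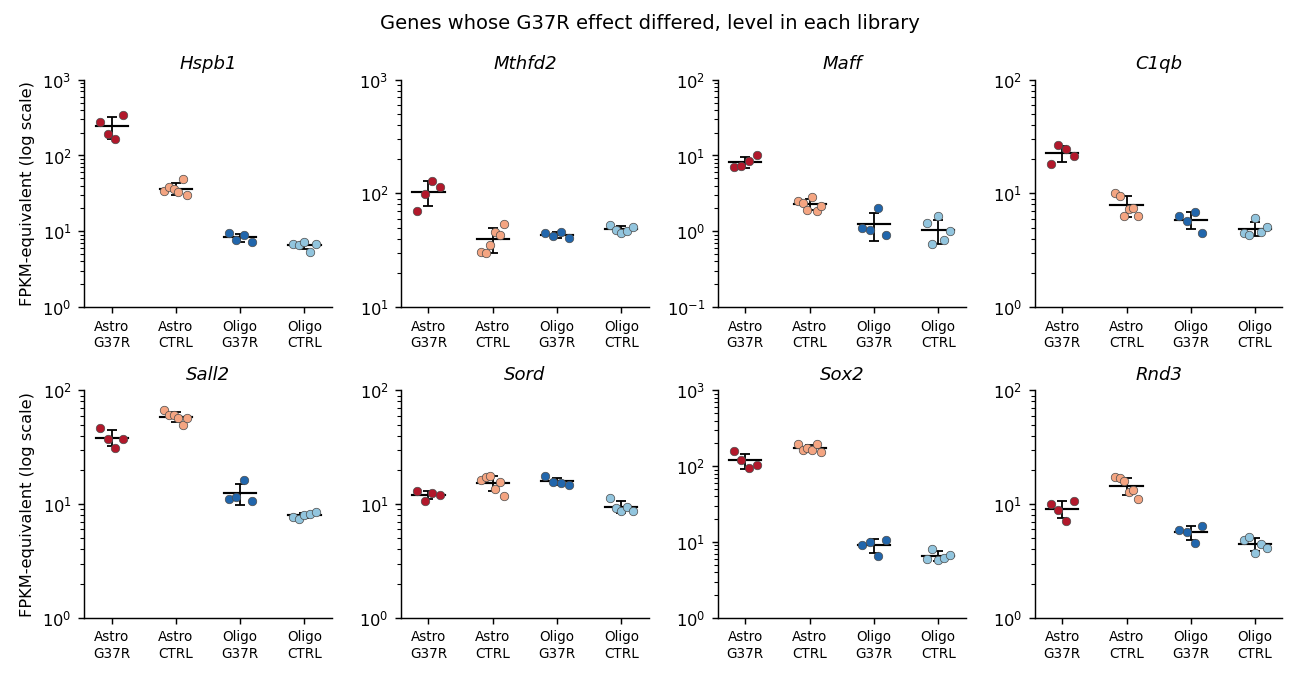
Level of 8 genes whose G37R effects differ between the cell types, in FPKM-equivalents on a log axis, 1 point per library, with bars for the mean and SD, in the same 4 groups. The G37R astrocyte libraries of Hspb1 (166 to 343) all lie above their controls (30.2 to 48.2), while those of oligodendrocytes overlap, and Sall2 is separate in opposite directions.

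Gene lists from textbook knowledge, chosen with earlier results known, are described by their counts. Of all 11462 genes, 1.18% rose in astrocytes and 0.0872% in oligodendrocytes, 1.12% passed as higher for the mean and 0.253% as higher for the difference, and the median effect was 0.00 in astrocytes and 0.01 in oligodendrocytes. Of 9 tested genes of reactive astrocytes, 5 rose in astrocytes (55.6%, median 0.64), 3 rose in oligodendrocytes (median 0.29), 6 passed for the mean and 1, Hspb1, for the difference. Of 12 genes of STAT3 and the acute phase, 6 rose in astrocytes (50%, median 0.64), 2, Serpina3n and Bcl3, in oligodendrocytes (median 0.39) and 7 passed for the mean. Of 16 interferon genes, 3 rose in astrocytes (18.8%, median 0.42) and 0 in oligodendrocytes (median 0.25), 4 passed for the mean and 0 for the difference. The 4 became 1 without replicates 1 and 3 of the G37R astrocytes and 2 without their replicate 4. Antigen presentation had 8 tested genes, of which 2 rose in astrocytes (25%, median 0.35) and 0 in oligodendrocytes (median 0.08). The 2 became 1 without replicate 4 and 0 without replicates 1 and 3 of the G37R astrocytes.

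Immune cell lists moved in astrocyte libraries and not past the threshold in oligodendrocyte libraries. Of 10 genes of homeostatic microglia, 6 rose (60%) and 1 fell in astrocytes (median 0.75), 0 passed in oligodendrocytes (median 0.08) and 3 passed for the difference. Of 13 genes of disease-associated microglia, 4 rose in astrocytes (30.8%, median 0.42), 0 passed in oligodendrocytes (median -0.07) and 3 for the difference. With length-centred values 1 passed in oligodendrocytes and 1 for the difference. Of 8 complement genes, 3 rose in astrocytes (37.5%, median 0.66), 0 passed in oligodendrocytes (median 0.18) and 3, the C1q chains, differed, which became 0 with length-centred values. Of 18 S100, annexin and galectin genes, 9 rose in astrocytes (50%, median 0.52), 0 in oligodendrocytes (median 0.07), 8 passed for the mean and 2 for the difference. The 2 became 6 without replicate 4 of the G37R astrocytes, 4 without their replicates 1 and 3, and 0 with length-centred values, where 1 passed in oligodendrocytes. Of 15 immediate early and C/EBP genes, 5 rose in astrocytes (33.3%), 4 passed for the mean, and 2 had a higher and 1, Ier5, a lower effect in astrocytes.

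Glucocorticoid-induced genes had the largest gap between the medians of the 2 cell types. Of 16 tested, 9 rose in astrocytes (56.2%, median 0.91) and 0 passed in oligodendrocytes (median -0.17), and 1, Mt1, passed for the difference. The effect was positive for 16 of 16 in astrocytes and 4 of 16 in oligodendrocytes. The median deviation of the list from the control mean was 0.44 to 1.14 in G37R and -0.14 to 0.32 in control astrocytes, and -0.57 to 0.51 in G37R and -0.49 to 0.59 in control oligodendrocytes. Fkbp5, an HSP90 co-chaperone of the glucocorticoid receptor, was at 19.1, 54.5, 70.5 and 84.5 in G37R and 4.61, 8.78 and 16.7 (lowest, median, highest) in control astrocytes, and at 16.1, 12.7, 28.7 and 10.5 in G37R and 8.04, 10.1, 25.9, 13.2 and 26.5 in control oligodendrocytes. The astrocyte groups were separate and the oligodendrocyte groups overlapped widely, but the difference of 2.38 had an SE of 0.65 and did not pass (adjusted p = 0.12). The 9 astrocyte calls became 6 without replicate 4 and 4 without replicates 1 and 3 of the G37R astrocytes. The 1 call for the difference became 3 without replicate 4, 2 with median-ratio scaling and 0 without replicates 1 and 3.

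The lists of protein stress, lysosome and NRF2 genes had 1 to 4 genes each that rose in astrocytes, against 1.18% of all genes. Of 22 genes of the PERK and ATF4 response, 4 rose in astrocytes (18.2%) and 1, Aldh1l2, in oligodendrocytes, 4 passed for the mean and 2, Mthfd2 and Nupr1, for the difference. Of 25 ER chaperone genes 1, Herpud1, rose in astrocytes (4%) and 0 in oligodendrocytes, and of 17 cytosolic heat shock genes 2 (11.8%) and 0. The call of Herpud1 in astrocytes ended in 8 of 10 omissions of 1 library, among them replicate 4 of the G37R astrocytes. The 25 lysosome genes gave 3 (12%) and 0 calls, and the 16 genes of NRF2 and metallothioneins 2 (12.5%) and 0. The heat shock and NRF2 counts in astrocytes became 1 and 3 without replicate 4 of the G37R astrocytes, and the NRF2 count 1 without their replicates 1 and 3. The myelin and metabolic lists had no calls in either table: 0 of 26 myelin genes passed in either table (medians -0.14 and -0.09), 0 of 22 cholesterol synthesis genes (medians -0.28 and -0.11), 0 of 18 genes of glycolysis and lactate transport, and 0 of 32 genes of the respiratory chain. With length-centred values 1 myelin gene was lower and 1 glycolysis gene higher in astrocytes. Without replicate 4 of the G37R astrocytes, 1 glycolysis gene was lower in astrocytes and 2 for the difference. The mean of the effects was positive for 1 of 22 cholesterol genes (median -0.21), 16 of 18 glycolysis genes (median 0.12) and 15 of 15 neuronal genes (median 0.21), against 5836 of 11462 genes in all. The G37R groups lay above their controls without overlap for 5 of the 18 glycolysis genes in oligodendrocytes and 0 in astrocytes. Of all genes, 4.39% in oligodendrocytes and 4.86% in astrocytes had no overlap in either direction. Of 12 genes of the oligodendrocyte lineage, Olig2 and Nkx2-2 fell in astrocytes, and Olig2 alone of the 2 without replicate 4 of the G37R astrocytes or with median-ratio scaling. Olig2, a factor of that lineage, was at 29.3 ± 7.83 in G37R and 51.8 ± 7.55 in control astrocytes (-0.82 (SE 0.16, adjusted p = 0.0188)) and at 186 ± 29.6 in G37R and 182 ± 5.13 in control oligodendrocytes (0.02 (SE 0.09, adjusted p = 0.962)), and the difference of -0.84 did not pass (adjusted p = 0.0592). All 30 ribosomal protein genes had a positive difference, against 5262 of all 11462 genes, with 0 calls. Their median effects were 0.20 in astrocytes and -0.12 in oligodendrocytes. The median of their differences was 0.34, and 0.16 with length-centred values. The astrocyte median was -0.08 without replicates 1 and 3 of the G37R astrocytes. Without replicate 4 of the G37R astrocytes, 4 of these genes passed for the difference. Of 21 homeostatic astrocyte genes 0 passed in either table, and of 15 neuronal genes 1, Slc32a1, rose in astrocytes, a call that ended in 9 of 10 omissions of 1 library.

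**Figure D5:**
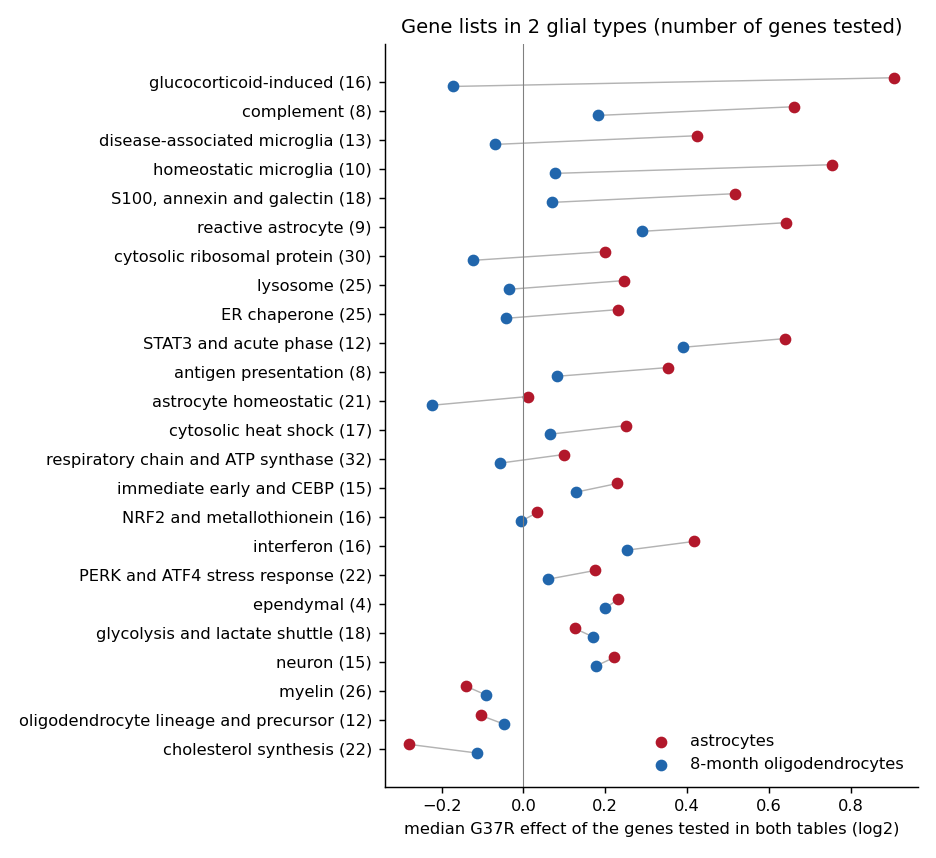
Median G37R effect (log2) of the genes of each list that were tested in both tables, with astrocytes in red above oligodendrocytes in blue, for lists with at least 4 tested genes, whose number stands in parentheses. Glucocorticoid-induced genes have the widest gap, at 0.91 and -0.17, while the reactive astrocyte and STAT3 lists lie right of 0 in both cell types.

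The surroundings of Pla2g4e on chromosome 2 were chosen from an earlier result in these oligodendrocyte libraries, so the oligodendrocyte and shared counts there describe the region and support nothing. Within 20 Mb of it lay 225 tested genes (1.96% of all). Of these, 11 met the criteria for shared genes (4.89%, against 0.676% of all other genes), 7 higher and 4 lower, and the 4 were Aven, A530058N18Rik, Gatm and Dnajc17. Called in both cell types were 2 genes of the region, Gchfr and Aven (0.889%, against 0.0267% of all other genes). The region held 4 oligodendrocyte calls (1.78%, against 0.0623% elsewhere) and, in the astrocyte libraries, which did not choose it, 10 astrocyte calls (4.44%, against 1.87%). The difference passed for 1 gene there, Sord (0.444%, against 0.489%). Scg5, a chaperone of prohormone convertase (chromosome 2, 113616469 to 113669248), averaged 107 ± 21.8 in G37R and 56.3 ± 7.33 in control astrocytes, and 139 ± 12.5 in G37R and 103 ± 8.44 in control oligodendrocytes, with a mean effect of 0.67 (SE 0.08, adjusted p = 9.79e-05). Cd59b, an inhibitor of the complement attack complex (chromosome 2, 103911166 to 103925114), had a mean effect of 0.65 (SE 0.08, adjusted p = 0.000101), and Gchfr, Chac1, Lmo2 and Atpbd4 were among the other genes that rose. In whole spinal cord at 8 months the log2 differences were 0.31 for Gchfr, 0.35 for Scg5, 0.61 for Cd59b and -0.16 for Gatm. Pla2g4e and Fmn1, which were not tested in both tables, lie in the region too.

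The shared genes were followed in the other tables, which have libraries and controls of their own. Of the genes tested in both glial types, 42.0% had a positive G37R effect in whole spinal cord at 8 months. This share was 55.0% in motor neurons and 48.8% in 11-month oligodendrocytes. Called higher were 128 of the 11398 that could be tested in spinal cord, and 40 were called lower. In motor neurons 763 of 11021 were called higher and 664 lower, and in 11-month oligodendrocytes 2830 and 2640 of 11205. In whole spinal cord at 8 months, 70 of the 76 shared higher genes had a positive G37R effect and 33 passed, where 300 of 13829 genes passed in all (2.17%). In motor neurons 65 of the 69 that could be tested were positive and 31 passed (12.9% of all genes passed). In oligodendrocytes at 11 months 73 of 74 were positive and 64 passed, where 49.0% of all genes passed. The 11 shared lower genes were all negative in whole spinal cord and in 11-month oligodendrocytes, where 9 passed. In motor neurons 4 of the 10 that could be tested were positive and 4 were called lower. Serpina3n had log2 differences of 2.70 in 11-month oligodendrocytes and 1.503 in spinal cord, and Lgals3 of 2.79 and 2.10. Of the 29 genes with the higher effect in astrocytes, 29 were positive in spinal cord, 14 past the threshold, and 20 were positive in 11-month oligodendrocytes, 13 past it. Of the 27 with the lower effect, 4 were positive in spinal cord and 0 passed, and 23 were positive in 11-month oligodendrocytes, 16 of them called higher and 2 of the 27 called lower. Sall2 was among them, at 0.84 (SE 0.11, adjusted p = 0.00117) in 11-month oligodendrocytes, as was Sord, at 0.64 (adjusted p = 0.000533). Mthfd2 was at 0.03 (adjusted p = 0.817) there, and Hspb1 at 1.84 (adjusted p = 0.0114).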

How the data were processed

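Ribosome-bound poly(A) RNA of astrocytes and 8-month oligodendrocytes was compared in 19 libraries. TopHat2 2.0.8b, Cufflinks, Cuffdiff and the mouse build mm9 are named per the submitters' processing notes, without their roles or settings. The authors deposited 6 tables of 23697 genes. In the table of 11-month spinal cord, the deposited values are FPKM. The other 5 tables bear the same name, but their deposited values are a signal on a higher scale, and the design had assumed FPKM. They were divided by 16768.3, the median over 13839 genes of spinal cord means at 8 months over those at 11 months, which is an assumption for purified cells. No counts were used here, and so the absolute depth is unknown. Values of the 8-month oligodendrocyte table of at least 59.6 on the rescaled scale carry 3 significant digits. The 75th percentile of non-zero values was 22.5 to 23.6 in astrocyte and 22.1 to 22.9 in oligodendrocyte libraries.

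After the log2(value + 1) transform, a mean level of at least 1 was required for testing. Each table was fitted with limma 3.58.1 under R 4.3.3, using a variance trend and robust moderation, and 1 joint fit of the 4 groups gave the difference and the mean of the effects. Tests were 2-sided, the Benjamini-Hochberg adjustment ran over all genes tested, and the threshold was 0.05. The scripts were tested on simulated data. Errors of means are SDs over libraries. Sequences were read from RefSeq tables with Python 3.11.15.

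The genes, lists and region were chosen with earlier results of these data known. The 26 lists had 543 members, of which 542 matched a symbol. Genes are named where they passed in both tables or in oligodendrocytes, where they were the 12 highest or 8 lowest shared genes or the 12 highest or 8 lowest differences, or where they led a list. Other named genes were chosen after their values were seen. Alternatives were another pseudocount, other filters and scalings, limma without trend and with array weights, replicate blocks, the omission of each library, and 3 settings added after the data were seen.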

Additional observations from a re-analysis of the deposited data

Results flagged for a closer look

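Single libraries stood far from the rest of their group in 7 of the 200 combinations of a named gene and a group of 4 to 6 libraries that were checked, where chance gives about 1 in 20. In control oligodendrocytes they were replicate 3 for Aven, at 70.4 FPKM-equivalents, replicate 4 for Hspb1, at 5.39, replicate 1 for Sord, at 11.4, and replicate 2 for Herpud1, at 50.8. The others were replicate 4 of the G37R oligodendrocytes for C1qc, at 4.22, and, for Nupr1, replicate 3 of the G37R astrocytes, at 15.6, and replicate 6 of the control astrocytes, at 7.91. The differences of Hspb1 and of Sord passed under each of the 29 alternatives run, and the oligodendrocyte effect of Aven under 16 of 19, the omission of that library among them.

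The genes named by the rule for naming whose G37R effects differed between astrocytes and oligodendrocytes, by the contrast of the effects in limma, are given as the astrocyte minus the oligodendrocyte effect. Higher in astrocytes were Hspb1 by 2.38, Mthfd2 by 1.52, Maff by 1.36, Lyz2 by 1.36 and Mt1 by 1.31. The immune and signalling genes Fcer1g by 1.25, Fcgr3 by 1.23, Cebpd by 1.23, S100a6 by 1.21, C1qb by 1.204, Tyrobp by 1.19 and C1qa by 1.17 were higher as well, as were Nupr1 by 1.14, C1qc by 1.13, Trem2 by 1.05, Olfml3 by 1.04, Ctsh by 0.91, Junb by 0.86 and Herpud1 by 0.81. Lower in astrocytes were Sall2 at -1.18, Sord at -0.9997, Sox2 at -0.97, Plekho2 at -0.93, Rnd3 at -0.90, Snrk at -0.87, Bcar3 at -0.86, Msi1 at -0.85 and Sox9 at -0.78.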

How the results depend on the processing

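All 4035 recomputed values of the 163 named gene results kept their direction, and 3456 kept their side of the threshold. Counts moved by more than 1.5 times as follows, against 56 genes for the difference, 163 for the mean, 292 in astrocytes, 13 in oligodendrocytes and 5 in both cell types. With a minimum mean of 5 they were 29 for the difference, 64 for the mean, 6 in oligodendrocytes and 3 in both, over fewer genes tested. With no filter they were 113 and 378 for the difference and the mean. Array weights gave 267, 422, 522, 25 and 9 in the order above, with 261 higher and 161 lower for the mean and 277 higher and 245 lower in astrocytes. The replicate numbers did not pair the libraries (r of same-numbered deviations from -0.23 to 0.14), and a replicate block gave 31 for the difference, 49 in astrocytes, 7 in oligodendrocytes and 2 in both. Effects from 1 fit of the 4 groups gave 524 in astrocytes, 205 higher and 319 lower against 190 and 102, and 6 in oligodendrocytes. Chosen after the data were seen, leaving out replicate 4 of the G37R astrocytes and replicate 3 of the control oligodendrocytes gave 438 for the difference, leaving out replicates 1 and 3 of the G37R astrocytes gave 147 in astrocytes and 3 in both, and length-centred values gave 33 for the difference and 256 for the mean. Leaving out each library in turn gave 21 to 626 for the difference, 103 to 219 for the mean, 138 to 296 in astrocytes, 7 to 17 in oligodendrocytes and 3 to 7 in both. The cause of these shifts was not tested. Median-ratio scaling split the mean calls into 134 higher and 48 lower, against 128 and 35.

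The limits are few libraries a group, values that are not counts, a common rescaling factor and tables that were normalized separately. Cell type and table cannot be told apart, and astrocyte groups have no stated age. Genes below the minimum level in either cell type were not compared, which leaves out genes made in 1 of them alone.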

Other observations

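With no filter on low values, Socs3 and Sprr1a also passed in both cell types, beside Aven, Gchfr, Pla2g4e, Serpina3n and Vim. Socs3 encodes the feedback inhibitor of STAT3 signalling and Sprr1a a cornified envelope protein that injured neurons make. Array weights added Cd59b, Junb, Lgals3 and Scg5 to the genes called in both. Length-centred values added Lgals3 and Scg5 and lost Bcl3, which the fit with no filter lost too. A replicate block left Serpina3n and added Lgals3. These genes were chosen after their values were seen.

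Some glucocorticoid-induced genes that rose in G37R astrocytes had a wide error in oligodendrocytes. Sgk1, a kinase induced by corticoids, averaged 74.4 ± 23.5 FPKM-equivalents in G37R and 30.1 ± 10.04 in control astrocytes, and lay at 520.0, 212, 1211 and 145 in G37R and 1449, 437, 1252, 1032 and 543 in control oligodendrocytes, with effects of 1.29 (SE 0.26, adjusted p = 0.0253) in astrocytes and -1.19 (SE 0.70, adjusted p = 0.584) in oligodendrocytes. Nfkbia, an inhibitor of NF-kB, had an astrocyte effect of 0.94 (SE 0.17, adjusted p = 0.0172) and an oligodendrocyte effect of -0.79 (SE 0.56, adjusted p = 0.653). Mt2, a metallothionein, averaged 21687 ± 3434 in G37R and 9591 ± 1404 in control astrocytes, and 129 ± 35.0 in G37R and 132 ± 37.5 in control oligodendrocytes. Neither Sgk1 nor Nfkbia passed for the difference, with values of 2.48 (SE 0.73, adjusted p = 0.148) and 1.73 (SE 0.56, adjusted p = 0.194).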
